A study of Homo sapiens with 33 samples.

Results

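The first hours of the retinoid response were measured in NB4, an established human cell line from acute promyelocytic leukaemia, whose cells are white cell precursors held at the promyelocyte stage. The cells were given either 1 µM ATRA (all-trans retinoic acid) or DMSO, its solvent, and were collected 4 h later, with 3 libraries from biological replicates in each group. These 6 libraries, of 33 in the series, were chosen by treatment and time alone. Untreated cells of 0 h (3 libraries) and the ATRA and DMSO cells of 12 h (3 libraries each) serve for comparison. All groups are of this 1 line and, per the labels, biological triplicates, so the p-values measure the spread between cultures of NB4 only. The libraries hold strand-specific total RNA, and at 4 h each held between 21720842 and 30593692 fragments counted on genes. A level is given in CPM, counts per 1000000 of the library's scaled total, and a change as the log2 fold change of ATRA over DMSO, with its standard error after ±.

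Acute promyelocytic leukaemia cells carry a fusion of PML with the retinoic acid receptor alpha gene, which holds target genes silent together with corepressors. Retinoic acid receptors pair with retinoid X receptors and sit on DNA at direct repeats of a short half-site. Binding of ATRA exchanges corepressors for coactivators, so genes beside such repeats can respond within hours, and the cells later mature towards granulocytes. ATRA is itself broken down by enzymes whose genes respond to it.

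The promyelocyte genes MPO (7466 CPM with ATRA and 8120.1 CPM with DMSO), AZU1 and CSF3R were present in all 6 libraries, while ELANE had 4 to 15 counts a library and KIT 0 to 2. Summed over 14 promyelocyte markers, the libraries held 9186 to 9859 CPM with ATRA and 9307 to 10508 CPM with DMSO. Of 16 erythroid and megakaryocyte markers 10 were at 0 counts in all 6 libraries, among them the globin genes HBA1, HBA2, HBB and HBG1. HBG2 was not among these. TFRC averaged 618 CPM with ATRA and 613 CPM with DMSO, and EPOR and ITGA2B were called higher. Of 15 epithelial and fibroblast markers COL1A2, COL3A1, DCN and LUM were at 0. Others were present, VIM at 274 and 367 CPM with ATRA and DMSO, KRT18 at 9.83 and 7.97 and PDGFRB at 2.38 and 1.32. On the first principal component of the 6 libraries, which held 53.8% of the variance, ATRA and DMSO libraries stood at opposite ends. DMSO replicate 5 stood apart from the other DMSO libraries on the second (15.8% of the variance, -46.84 against 20.38 and 26.92), and mitochondrial and small RNA genes took 10.391% of its counts, against 7.079% to 8.686% in the others. Counts of changed genes are therefore given with and without it where it moved them.

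Because receptors bind direct repeats, the RefSeq promoter windows (GRCh38.p14, 250 bases before to 50 after a gene's start) were searched for them. The half-sites were AGGTCA and GGGTCA and AGTTCA and GGTTCA, on either strand, with 5, 2 or 1 bases between 2 of them. Windows were found for 11704 tested genes. A repeat spaced by 5 bases was present in 12 of these genes (0.103%), in 5 of the 441 that rose at least 2-fold with ATRA (1.13%) and in 0 of the 188 that fell at least 2-fold. All 5 of the 2-fold risers with this repeat are shown here, and capitals mark the half-sites. A half-site on the other strand reads as its reverse complement, such as TGACCT for AGGTCA.
RARB, chr3:25428190-25428246, plus strand, half-sites from 53 bases before the start: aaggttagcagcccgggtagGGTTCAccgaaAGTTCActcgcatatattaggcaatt
CYP26A1, chr10:93073783-93073839, plus strand, 90 bases before: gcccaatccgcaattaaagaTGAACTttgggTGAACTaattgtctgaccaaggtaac
TRIM31, chr6:30113254-30113310, minus strand, 200 bases before: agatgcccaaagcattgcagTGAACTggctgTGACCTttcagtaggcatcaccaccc
CYB5R2, chr11:7673062-7673118, minus strand, 207 bases before: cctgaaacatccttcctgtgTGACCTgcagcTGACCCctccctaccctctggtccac
BATF2, chr11:64990270-64990326, minus strand, 29 bases before: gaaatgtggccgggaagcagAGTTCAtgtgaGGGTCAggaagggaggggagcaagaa
The repeat in RARB, a retinoic acid receptor, and that in CYP26A1, which hydroxylates ATRA, are textbook response elements. A repeat spaced by 2 bases was in 5 genes in all and in 0 of the 2-fold risers, and one spaced by 1 base in 25 genes and in 2 of the 2-fold risers, BTBD19 and RAP1GAP2. With AGGTCA and AGTTCA alone, 3 genes kept a repeat spaced by 5 bases, 2 of them 2-fold risers. TRIM31, a ubiquitin ligase gene, had 0 counts in the DMSO libraries and stood at 0.647, 0.658 and 0.563 CPM with ATRA, at least 16.3-fold higher if the floor is set at 3 counts for the group. CYB5R2, a cytochrome b5 reductase, had 0 counts with DMSO and 8 with ATRA, at least 2.46-fold higher, and did not pass without ATRA replicate 4 (adjusted p = 0.183), DMSO replicate 4 (0.0531) or DMSO replicate 5 (0.0568). BATF2, a leucine zipper factor, stood at 1.33, 1.8 and 1.81 CPM with ATRA against 0.557, 0.586 and 0.767 CPM with DMSO, without overlap. Only tested genes were counted, and genes scarce with DMSO, such as RARB, TRIM31 and CYB5R2, could enter the test through their level with ATRA. That favours genes that rose, and how far it moved the shares was not tested. A match describes letters in a window, and no binding was measured.

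Among the receptors themselves, RARG, RARB and RXRB were higher with ATRA, RXRA was lower, and RARA, the receptor that is part of the fusion, did not pass the test. Over all 22971 tested genes 24.7% passed (12.3% rose and 12.4% fell), with a median change of 0.00, and the median of the 5 receptors was 0.32. With every gene left out that shares exon sequence with another gene model on its strand, 2 receptors were tested, of which 1 rose and 1 fell. RARG (ENSG00000172819, GRCh38 chromosome 12, 53207623 to 53232980) stood at 13.4, 14 and 13.3 CPM in the 3 ATRA libraries and at 0.472, 0.33 and 0.584 CPM with DMSO, a change of 4.87 ± 0.26 (adjusted p = 1.92e-18, edgeR quasi-likelihood test with Benjamini-Hochberg adjustment over all tested genes, as for every adjusted p below). All ATRA libraries lay far above all DMSO libraries. RARB (ENSG00000077092, GRCh38 chromosome 3, 25174146 to 25600224) had 0, 0 and 1 counts with DMSO and 40 counts in the ATRA libraries together, a ratio of 36.9 with an exact 95% interval of 6.26 to 1494 that covers counting error only. Its level with ATRA, 0.533, 0.359 and 0.563 CPM, remained low. RXRA (ENSG00000186350, GRCh38 chromosome 9, 134317098 to 134668627), the common partner receptor, stood at 77.6, 82.5 and 77.7 CPM with ATRA against 164, 161 and 226 CPM with DMSO (-1.21 ± 0.09, adjusted p = 1.15e-13). The groups did not overlap, and the untreated libraries (118, 120.2 and 127 CPM) lay between them. RARA was at 53.1, 51.3 and 49.4 CPM with ATRA and 48.1, 43.1 and 62.3 CPM with DMSO, a range that encloses all ATRA values (adjusted p = 0.987). Counts were made per gene, so transcripts of the normal receptor and of the fusion were not told apart. RXRB, at 19, 20.9 and 21.1 CPM against 18.2, 15.4 and 15.6 CPM, passed with a change of 0.32 ± 0.10 (adjusted p = 0.0184), and did not pass without any 1 of ATRA replicates 4 and 5 and DMSO replicates 4 and 5 (adjusted p from 0.0516 to 0.0746).

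Of 17 tested genes of retinoid uptake, synthesis and breakdown 6 rose and 1 fell, with a median change of 0.20, and enzymes that store or break down retinoids were among those that rose. All 6 that rose share some exon sequence with another gene model on their strand, 1.1% of the length for DHRS3, 3.2% for AKR1C3, 4.6% for CYP26B1, 9.5% for STRA6, 10.7% for CYP26A1 and 39.3% for RDH11. With every such gene left out, 5 of the list were tested, of which 0 rose and 1 fell. DHRS3 (ENSG00000162496, GRCh38 chromosome 1, 12563025 to 12657618), which reduces retinaldehyde to retinol, stood at 71.7, 70.3 and 66.8 CPM with ATRA against 1.29, 1.5 and 2.34 CPM with DMSO (5.33 ± 0.13, adjusted p = 1.92e-29). The untreated libraries, at 2.25, 1.88 and 2.03 CPM, were at the DMSO level. The ATRA hydroxylases CYP26B1 and CYP26A1 rose from low levels. CYP26B1 stood at 3.46, 4.07 and 2.53 CPM with ATRA and 0.214, 0.0733 and 0.438 CPM with DMSO (3.77 ± 0.37), and CYP26A1 at 1.1, 0.987 and 1.09 against 0.3, 0.33 and 0.219 CPM (1.89 ± 0.38). STRA6, the cellular retinol uptake receptor, was also higher in the solvent, at 16.5, 16.4 and 21.8 CPM against 2.98, 3.54 and 3.52 CPM untreated, and stood at 87.4, 88.4 and 94.7 CPM with ATRA (2.30 ± 0.09). AKR1C3, a keto reductase with retinaldehyde activity, rose from 3 to 31 counts (ratio 9.54, exact 95% interval 2.97 to 48.7), and RDH11, a retinaldehyde reductase, by 0.20. RDH10, which makes retinaldehyde from retinol, fell (-0.55 ± 0.12). Of 10 members that were not tested, LRAT, CRABP1, ADH4 and SDR16C5 were among those at 0 counts in all 6 libraries.

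**Figure D1:**
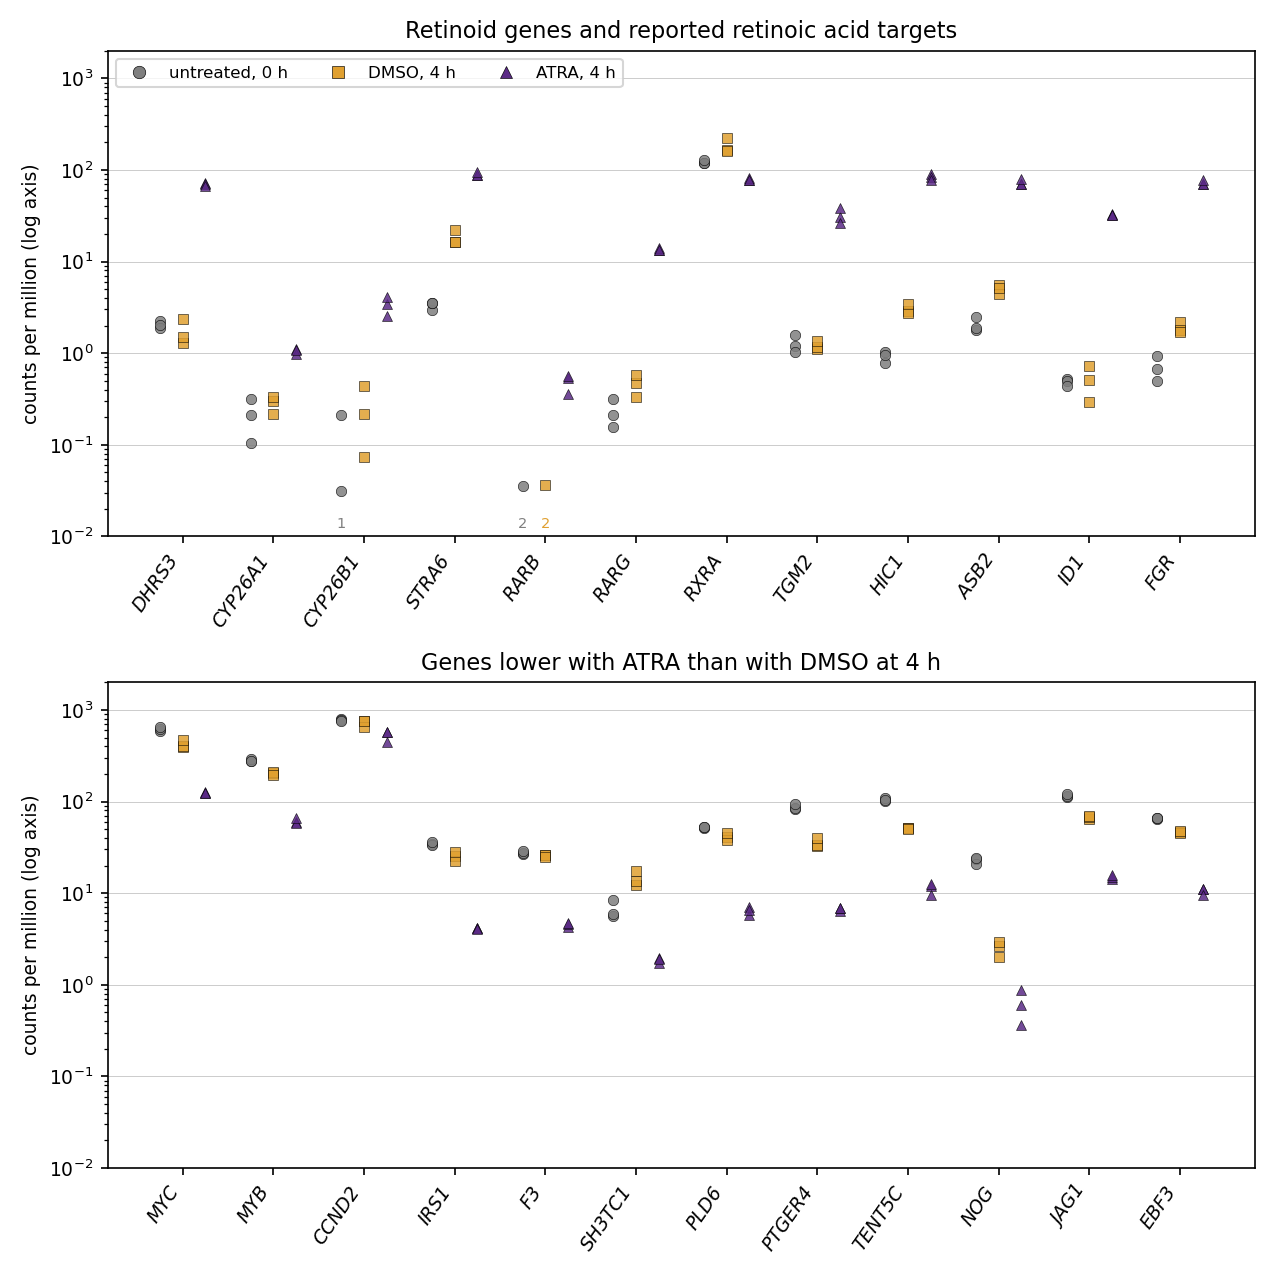
Level of 24 genes in each untreated, DMSO and ATRA library, in CPM on a log axis, with 1 point per library. Small numerals above the lower edge count the libraries at 0. The ATRA triangles stand clear of the DMSO squares for every gene shown, while the DMSO squares lie near the untreated circles for DHRS3 and TGM2 and well below them for PTGER4 and NOG.

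Over the whole genome, 2820 genes rose and 2853 fell of 22971 tested, and the values of the groups did not overlap for 5312 of these 5673 genes. Over all tested genes, called or not, 34.9% had groups that did not overlap. Of 13418 protein-coding genes 31.9% were called, and counts of called genes in each list are to be read beside that share. Without DMSO replicate 5, 2451 rose and 2659 fell. The rises were larger. At least 2-fold changes were called for 1387 genes (6.04%), 944 genes that rose (4.11%) and 443 that fell (1.93%), and at least 8-fold changes for 247 that rose (1.08%) and 9 that fell (0.0392%). A test against a 2-fold change (glmTreat in edgeR) passed 498 genes (2.17%), 415 rising (1.81%) and 83 falling (0.361%), and 386 and 61 without DMSO replicate 5. Of the 944 genes, 653 (69.2%) were under 1 CPM on average with DMSO, as 34.2% of all tested genes were, and of the 443 genes 147 (33.2%). The filter used all 33 libraries, so a gene scarce with DMSO could enter the test through its level with ATRA. That can favour large rises, and how far it moved these counts was not tested.

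**Figure D2:**
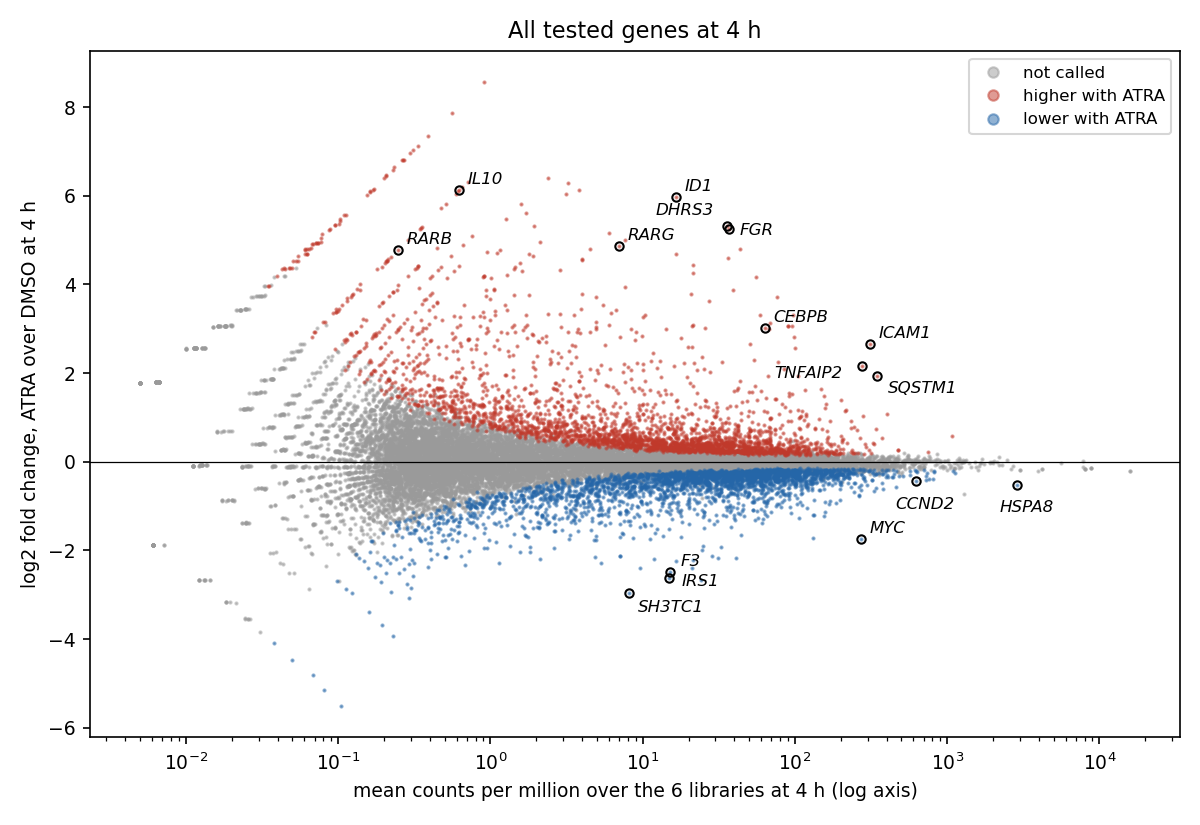
Log2 fold change of ATRA over DMSO at 4 h against the mean level over the 6 libraries (log axis), 1 point per tested gene, red where it rose and blue where it fell. Points reach beyond 8 upwards and mostly stay within -3 downwards, and the lines of points at the left are genes with few counts, whose values depend on the prior count of the fit.

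Of 30 tested genes reported as retinoid targets in myeloid cells 25 rose, 2 fell and 3 did not pass, with a median change of 1.76. The list was drawn from knowledge of ATRA-treated leukaemia cells and with earlier results of these data in view, so its direction is a description. The helix-loop-helix inhibitor gene ID1 stood at 33.3, 32 and 32.3 CPM with ATRA against 0.514, 0.293 and 0.73 CPM with DMSO (5.97 ± 0.20, adjusted p = 1e-24). HIC1, a transcriptional repressor gene, stood at 89.9, 84 and 78 against 2.87, 2.71 and 3.47 CPM (4.79 ± 0.13), and the transglutaminase gene TGM2 at 30.3, 26.5 and 38.2 against 1.11, 1.17 and 1.35 CPM (4.69 ± 0.26). For each of these genes the lowest ATRA library was more than 10 times the highest DMSO library. ASB2, which targets filamins for breakdown, rose by 3.87, the secreted glycoprotein gene LRG1 by 3.06 (all of its exon length lies in another gene model too), the lipolysis inhibitor G0S2 by 2.84 and the NAD-consuming surface enzyme CD38 by 2.10. The 2 that fell were the repressor PRDM1 (-1.43) and the ETS factor ETS2 (-0.47).

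The largest rises among genes with an average log2 CPM of at least 1 over the series included genes that DMSO cells barely expressed. PELATON, a long non-coding RNA of monocytes and macrophages, was at 0 counts in the DMSO libraries and at 1.79, 2.06 and 1.57 CPM with ATRA, at least 47.7-fold higher with the same floor of 3 counts. LIF, a cytokine of the interleukin 6 family, was also at 0 counts with DMSO and at 0.495, 0.479 and 0.643 CPM with ATRA, at least 13.8-fold higher. HCAR3, a hydroxycarboxylic acid receptor with 90.4% of its exon length shared, and CEACAM1, an adhesion molecule with 12 counts in all ATRA libraries, were at 0 with DMSO as well, at least 8-fold and 3.69-fold higher. Without ATRA replicate 5, CEACAM1 did not pass (adjusted p = 0.0779). Of those measurable in both groups, SCUBE1, a secreted protein that can bind bone morphogenetic proteins, rose by 6.04 ± 0.41, SLC24A4, a sodium and calcium exchanger, by 5.61 ± 0.41, FGR, a Src-family kinase of phagocytes, by 5.25 ± 0.15, KCNH4, a potassium channel, by 4.99 ± 0.18, and the chemokine CCL24 by 4.81 ± 0.25. PTGES (5.31 ± 0.33), ARL14EPL (5.80 ± 0.40) and the lysosomal thiol reductase IFI30 (5.16 ± 0.22) share 21.7%, 100% and 62.7% of their exon length with other genes, so their counts are uncertain. FGR showed the pattern in each library, with 69.4, 69.5 and 77 CPM against 2.19, 1.79 and 1.72 CPM.

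Abundant transcripts changed as well. The adhesion ligand ICAM1 went from 79.4, 85.4 and 91.8 CPM with DMSO to 512, 582 and 515 CPM with ATRA (2.65 ± 0.11), the autophagy receptor SQSTM1 from 138, 139 and 155 to 534, 564 and 553 CPM (1.94 ± 0.08) and TNFAIP2, a gene induced by tumour necrosis factor, from 96.3, 91.8 and 113 to 431, 447 and 472 CPM (2.16 ± 0.09). No ATRA library overlapped a DMSO library for these genes. The untreated cells were lower still, at means of 32.8, 75.9 and 40.9 CPM, so all 3 genes were also higher in DMSO cultures than at the start.

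Transcription factors of myeloid maturation changed in both directions. Of 28 tested C/EBP and myeloid factors 6 rose and 15 fell, with a median of -0.29. CEBPE, which drives granulocyte maturation, stood at 162, 164 and 172 CPM with ATRA and 41.5, 43.9 and 44.7 CPM with DMSO (1.94 ± 0.08, adjusted p = 3.81e-21), with the untreated cells (43.3, 45.3 and 53.2 CPM) at the DMSO level. CEBPB rose by 3.02 ± 0.15, but all of its exon length is shared with other gene models on its strand. GFI1B, a transcriptional repressor that acts in the platelet and red cell lineages, rose by 3.00 ± 0.14, from 1.71, 1.36 and 2.52 to 14.3, 16 and 14.7 CPM. SPI1, the PU.1 factor of myeloid commitment, rose by 0.61 ± 0.07 (32% of its exon length is shared). KLF4 (-1.21 ± 0.19), ZEB2 (-1.27 ± 0.07) and IRF8 (-0.87 ± 0.20), factors of the monocyte and dendritic branches, were among those that fell. KLF4 stood at 1.41, 1.05 and 1.49 CPM with ATRA against 3.6, 3.26 and 2.19 CPM with DMSO and 8.32, 8.99 and 8.87 CPM untreated. CEBPD, another C/EBP factor, stood at 9.44, 8.59 and 9.57 CPM with ATRA, 20.1, 16.9 and 23 CPM with DMSO and 44.3, 40.2 and 45.3 CPM untreated (-1.12 ± 0.12). For both genes the untreated libraries were highest and the ATRA libraries lowest, with no overlap. Monocyte and macrophage markers summed to 32.6 to 35.3 CPM with ATRA and 26.2 to 28.2 CPM with DMSO, with 4 of 11 tested higher (CD86, S100A9, MERTK and CSF1R), 1 lower (FCN1) and MSR1 and C1QB at 0. Their part in these values was not tested, and in bulk RNA fewer cells of a type and less RNA per cell cannot be told apart.

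Smaller families of regulators moved in both directions. ID1 and ID2 (0.91) rose while HES1, a repressor downstream of Notch, fell (-1.43 ± 0.15) and its relative HES2 rose by 2.23 ± 0.17. HES2 stood at 15, 16.5 and 14.1 CPM with ATRA against 3.34, 2.75 and 3.61 CPM with DMSO. The Notch ligand JAG1 was 14.3, 14.8 and 15.8 CPM with ATRA against 64.6, 68.3 and 69.8 CPM with DMSO (-2.17 ± 0.08; 24% of its exon length is shared). Of 22 tested genes of the HOX clusters, MEIS and PBX 5 rose and 5 fell. With genes that share exons left out, 2 were tested and both fell, and with the groups fitted alone 4 rose and 1 fell. At an edge of the HOXA cluster, HOXA2 (1.08) and the antisense RNA HOTAIRM1 (1.10) were higher with ATRA, while HOXA11 (-1.10) at the other side was lower. HOXA2 shares 76% of its exon length with other models, so its count is uncertain. Without ATRA replicate 5, 4 genes of the list rose and 2 fell. Of 28 coactivators, corepressors and nuclear body genes, 7 rose and 2 fell, all by less than 2-fold. The share called was 32.1%, near the 31.9% over all tested protein-coding genes. NCOA3, a coactivator of nuclear receptors, rose by 0.65 ± 0.06 and PML by 0.27 ± 0.08.

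Many interferon-stimulated genes were higher by small amounts. Of 44 tested, 28 rose, 8 of them at least 2-fold, 1 fell and 15 did not pass, with a median of 0.58. IRF1, a factor that acts on many of them, stood at 129, 127 and 128 CPM with ATRA against 25.5, 26.6 and 28.4 CPM with DMSO (2.26 ± 0.07, adjusted p = 2.08e-26; ENSG00000125347, GRCh38 chromosome 5, 132446656 to 132496363), and no ATRA library came near a DMSO library. The guanylate-binding protein gene GBP5 went from 1.37, 0.916 and 0.694 to 6.05, 5.18 and 5.51 CPM (2.5 ± 0.19), and IFIT1, an antiviral RNA sensor with 47.6% of its exons shared, from 9.95, 12.4 and 9.02 to 14.3, 13.6 and 13.1 CPM (0.38 ± 0.12). MX1, a classic interferon readout, rose by 0.70 ± 0.23, and OAS1 did not pass at 0.40 ± 0.15 (adjusted p = 0.0533). ISG20, an exonuclease, fell (-1.01 ± 0.08) and shares 51% of its exons. Of 24 tested interferon regulatory factors, JAKs, STATs and their regulators 9 rose and 6 fell (62.5% called). The feedback inhibitors SOCS3 (2.22 ± 0.19) and SOCS1 (1.73 ± 0.21) rose. SOCS3 stood at 5.86, 5 and 5.87 CPM with ATRA, 0.9, 0.879 and 1.75 CPM with DMSO and 8.32, 7.79 and 8.24 CPM untreated, so ATRA cells were nearer to the start than DMSO cells were.

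Genes of the mature phagocyte surface were among those that rose. Of 50 tested surface receptors and integrins 26 rose, 7 fell and 17 did not pass, with a median of 0.35. The integrin subunit ITGB7 stood at 24.9, 24.7 and 25.9 CPM with ATRA against 3, 2.38 and 4.02 CPM with DMSO (3.00 ± 0.15), and ITGAX, the CD11c subunit, at 15.8, 15.9 and 16.9 against 4.2, 3.96 and 5.55 CPM (1.82 ± 0.13). The granulocyte growth factor receptor CSF3R stood at 71.5, 69.9 and 77.4 against 35.7, 29.5 and 35.4 CPM (1.12 ± 0.09). ITGAM, the CD11b subunit often used to score maturation, stood at 9.1, 10.9 and 11.8 against 7.12, 5.39 and 7.37 CPM (0.68 ± 0.11), with the untreated cells at 6.49, 7.75 and 7.54 CPM. The groups did not overlap for any of these integrins and receptors. The endotoxin receptor TLR4 (1.13 ± 0.15) and the chemokine receptor CCR1 (1.23 ± 0.10) rose, while the immunoglobulin A receptor FCAR (-0.61 ± 0.17) fell with overlapping groups, the DMSO libraries spreading from 5.35 to 10.8 CPM and the ATRA libraries from 4.02 to 5.42 CPM. Of 23 genes of Src-family kinases and partners 10 rose and 5 fell. Beside FGR, those that rose included the adaptor SLA (1.55 ± 0.06), and LYN was called at only 0.19 ± 0.06.

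Effector genes of the neutrophil were called in part. Of 9 genes of the phagocyte NADPH oxidase, the enzyme that makes superoxide, 5 rose. NCF1, the p47 subunit, stood at 97.4, 104 and 113 CPM with ATRA against 5.1, 5.9 and 6.42 CPM with DMSO (4.17 ± 0.11), and since near-identical pseudogenes of NCF1 exist the value is uncertain. CYBB, the membrane subunit, was at 195, 196 and 196 CPM against 224, 235 and 195 CPM and did not pass (-0.16 ± 0.08, adjusted p = 0.137). Without DMSO replicate 5 it passed as lower (-0.23, adjusted p = 0.0236). Of 19 azurophil granule genes 5 rose and 1 fell, and MPO did not pass (-0.12 ± 0.10, adjusted p = 0.447). Of 15 specific and gelatinase granule genes 2 rose and 2 fell. The shares called were 31.6% for the azurophil and 26.7% for the specific and gelatinase list, not above the 31.9% of all protein-coding genes. The gelatinase gene MMP9 rose by 0.66 ± 0.11, and the late granule genes CAMP and LTF were at 0.213 and 0.0361 CPM with ATRA and did not pass.

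Secreted signals changed in both directions. Of 27 chemokine and inflammatory cytokine genes 11 rose and 4 fell, with a median of 0.57. IL10, an anti-inflammatory cytokine (ENSG00000136634, GRCh38 chromosome 1, 206766381 to 206774100), rose from 1 count to 103 counts (ratio 95, exact 95% interval 16.7 to 3790.1) and stood at 1.49, 1.05 and 1.17 CPM with ATRA. The monocyte attractant CCL2 was at 76, 72.3 and 84.9 CPM against 24.4, 28.2 and 25.5 CPM (1.58 ± 0.11) and oncostatin M, OSM, at 14.5, 15.3 and 15.8 against 4.33, 5.2 and 6.28 CPM (1.52 ± 0.12). Those that fell were TNF, IL1RN and the neutrophil attractants CXCL2 and CXCL3. TNF stood at 22.8, 25.2 and 21.1 CPM with ATRA, 58.8, 53.2 and 61.7 CPM with DMSO and 282, 300.3 and 360.4 CPM untreated (-1.32 ± 0.11), so DMSO cells, too, were far below the start. CXCL3 had 2 counts with ATRA and 23 with DMSO, 12.5-fold fewer with an exact 95% interval of 3.08 to 109. CXCL8, at 17.1, 16.7 and 17.6 CPM against 19.9, 21.9 and 16.6 CPM, did not pass (adjusted p = 0.281), although both groups lay far under the untreated 146 CPM. Among 21 genes of NF-kB subunits and inhibitors 9 rose and 2 fell (52.4% called), led by the nuclear cofactor BCL3 (2.26 ± 0.14). TNFAIP3, which ends NF-kB signals, fell (-0.61 ± 0.09). Of 26 tested genes of the tumour necrosis factor superfamily 8 rose and 8 fell (61.5% called). The ligand TNFSF9 (1.66 ± 0.22) rose, the receptor TNFRSF21 (-1.70 ± 0.14) fell and the death ligand TNFSF10 did not pass at 4 h (-0.17 ± 0.16, adjusted p = 0.517).

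Of 21 tested prostaglandin and leukotriene genes 5 rose and 5 fell. With genes that share exons left out, 0 of 10 rose and 4 fell. PTGES, the terminal synthase of prostaglandin E2, with 21.7% of its exon length shared, was at 2.89, 3.98 and 4.38 CPM with ATRA against 0.0429, 0.11 and 0.11 CPM with DMSO. Of the receptors for prostaglandin E2, PTGER1 rose (1.27 ± 0.39), although 100% of its exon length is shared and its count is uncertain. PTGER4 (-2.39 ± 0.10) and PTGER2 (-1.37 ± 0.40) fell, and PTGER2 did not pass without ATRA replicate 4 (adjusted p = 0.0741) or without DMSO replicate 5 (0.0876). PTGER4 stood at 6.32, 6.97 and 6.88 CPM with ATRA, 32.4, 33.4 and 39.8 CPM with DMSO and 82.6, 84.6 and 94.7 CPM untreated. ALOX5AP, which presents arachidonic acid for leukotriene synthesis, rose by 2.93 ± 0.20. Tissue factor F3 (ENSG00000117525, GRCh38 chromosome 1, 94527921 to 94543171), the trigger of clotting that promyelocytic leukaemia cells express, was lower in every ATRA library, at 4.3, 4.58 and 4.71 CPM against 26, 25.9 and 24.8 CPM (-2.5 ± 0.12, adjusted p = 3.65e-20). The untreated cells, at 26.7, 27.4 and 29.1 CPM, did not differ from DMSO cells by the test (adjusted p = 0.393). The anticoagulant receptor thrombomodulin, THBD, rose by 1.09 ± 0.11. Of 18 tested genes of coagulation and fibrinolysis 3 rose and 2 fell, so 27.8% were called, against 31.9% of all protein-coding genes.

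Of 30 tested genes of TGF-beta and BMP signalling 13 fell and 5 rose, with a median of -0.18. The inhibitors NOG (-2.05 ± 0.24), BAMBI (-1.56 ± 0.18), SMAD7 (-1.36 ± 0.18) and SMAD6 (-0.57 ± 0.11) and the corepressor TGIF1 (-1.63 ± 0.10) fell. NOG, which traps BMPs, stood at 0.876, 0.598 and 0.362 CPM with ATRA, 2.01, 2.67 and 2.92 CPM with DMSO and 23.6, 20.9 and 23.9 CPM untreated. Receptors of the pathway were called in both directions. TGFBR2 (-0.89 ± 0.08), TGFBR1 (-0.82 ± 0.07), ACVR1B (-0.72 ± 0.09) and BMPR1A (-0.29 ± 0.09) fell, as did the ligand BMP2 (-0.77 ± 0.11) and the signal carrier SMAD2 (-0.20 ± 0.06). The endothelial-type receptors ENG and ACVRL1 rose from 2 and 0 counts to 31 and 10 counts, a ratio of 14.3 (exact 95% interval 3.64 to 123) for ENG and at least 3.08-fold for ACVRL1. The corepressor SKIL rose from a higher level, at 69.3, 70.5 and 64.3 CPM against 21.4, 21.3 and 15 CPM (1.82 ± 0.11).

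MYC and many genes of growth were lower. MYC, the growth-promoting transcription factor, stood at 123, 128 and 123 CPM with ATRA, 389, 403 and 468 CPM with DMSO and 594, 623 and 646 CPM untreated (-1.75 ± 0.08, adjusted p = 3.17e-20). The values of the 3 ATRA libraries lay close together and far from the other groups. Of 12 genes of MYC and the MAX network 4 rose and 6 fell, and of the 5 that share no exons 0 rose and 3 fell. The antagonist MNT rose by 0.99 ± 0.10 to 14.7, 15.7 and 15.8 CPM, against 7.29, 7.62 and 8.32 CPM with DMSO and 15.1, 13.7 and 16.4 CPM untreated. MLXIPL, a sugar-sensing relative in the same network, rose by 4.95 ± 0.39, and MLX and MLXIP of that network fell. MAX (-0.52 ± 0.06), the partner of MYC, MXI1 (-0.45 ± 0.13), another antagonist, and MGA (-0.44 ± 0.07) also fell. Of 30 ribosome biogenesis genes 0 rose and 26 fell (median -0.40), none but POLR1B by as much as 2-fold. POLR1B, a subunit of RNA polymerase I, stood at 60.7, 62.6 and 60.3 CPM against 124, 129 and 119.6 CPM (-1.02 ± 0.07) and shares 46.9% of its exons, and NOP56 stood at 294, 301 and 309 against 465, 499 and 412 CPM (-0.60 ± 0.07). Of 28 genes of polyamine, nucleotide and serine synthesis 0 rose and 16 fell (median -0.20), with the polyamine enzyme ODC1 at -0.28 ± 0.07. Of 30 cytosolic ribosomal protein genes 0 passed in edgeR's test, and 1 rose without DMSO replicate 4.

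Of 15 tested stem and progenitor genes 9 fell and 1 rose, with a median of -0.42. MYB, a factor that keeps progenitors immature, stood at 59.7, 58.8 and 65.3 CPM with ATRA, 204, 208 and 195 CPM with DMSO and 275, 289.7 and 277 CPM untreated (-1.72 ± 0.06, adjusted p = 9.48e-24). BCL11A, known for silencing fetal globin, fell (-1.68 ± 0.13), as did the telomerase gene TERT (-1.20 ± 0.08) and GATA2 (-1.09 ± 0.09), a factor of early progenitors. GATA2 stood at 34.1, 33.2 and 35.2 CPM with ATRA, 69.4, 64.4 and 83.7 CPM with DMSO and 39.8, 38.8 and 39.8 CPM untreated, so it rose in the solvent and not with ATRA.

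Cell cycle genes that were called at 4 h were mostly higher. Of 30 mitosis genes 14 rose and 0 fell (median 0.20). Without DMSO replicate 5, 7 rose and 1 fell, and 8 rose and 0 fell when the ATRA and DMSO groups of 4 h were fitted alone. Summed mitosis levels were 4636 to 4849 CPM with ATRA and 3705 to 4525 CPM with DMSO. Of 30 DNA replication genes 6 rose and 0 fell, so 20% were called, less than the 31.9% of protein-coding genes and the 24.7% over all genes. Of these genes 3 rose without ATRA replicate 4, without ATRA replicate 5, without DMSO replicate 2 or with the groups fitted alone, and 2 rose with no filter on low counts or with a replicate block in the groups fitted alone. The proliferation gene MKI67 stood at 539, 487 and 459 CPM against 464, 453 and 434 CPM and did not pass (adjusted p = 0.251). Of 24 tested genes of G1 cyclins, kinases and inhibitors 8 rose and 4 fell, so 50% were called, against 31.9% of all protein-coding genes. The risers were the kinase inhibitors CDKN1A, CDKN1C, CDKN2C and CDKN2D and the factors E2F1, E2F2, E2F7 and E2F8. CCND2, CCND1, CDK4 and CDC25A fell. CDKN1C stood at 3.46, 3.74 and 4.83 CPM against 0.3, 0.696 and 0.803 CPM (2.70 ± 0.26) and CDKN2D at 32.7, 30.4 and 29.3 against 6.09, 7.36 and 6.1 CPM (2.24 ± 0.09). CDKN1A passed at 0.52 ± 0.18 and did not pass without ATRA replicate 4, DMSO replicate 2 or DMSO replicate 5 (adjusted p = 0.15, 0.122 and 0.0702). The G1 cyclin gene CCND2 stood at 575, 570.2 and 443 CPM with ATRA against 760.2, 646 and 756 CPM with DMSO (-0.45 ± 0.10). In the BCL2 family 5 of 16 rose and 2 fell (43.75% called). BCL2A1, a survival gene of neutrophils, stood at 7.39, 5.6 and 7.64 CPM against 0.729, 0.879 and 1.1 CPM (2.90 ± 0.17; 16.1% of its exons are shared), while BCL2 itself fell from 59.1, 54.4 and 56.1 to 25, 24.6 and 21.1 CPM (-1.26 ± 0.07).

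The largest falls included receptors and signal adaptors. SH3TC1, a gene of endosome recycling proteins, stood at 1.71, 1.94 and 1.89 CPM with ATRA against 12.3, 13.4 and 17.7 CPM with DMSO (-2.96 ± 0.15), PLD6, a mitochondrial phospholipase, at 5.83, 7.09 and 6.47 against 41.5, 38 and 45.1 CPM (-2.68 ± 0.10) and IRS1 (ENSG00000169047, GRCh38 chromosome 2, 226724630 to 226816374), the docking protein of the insulin receptor, at 4.15, 4.16 and 4.1 against 25.6, 22.6 and 28.3 CPM (-2.62 ± 0.10). All 3 genes had non-overlapping groups. IRS2, the relative of IRS1, fell (-1.66 ± 0.09), while DDIT4, an inhibitor of growth signals through mTORC1, rose by 1.53 ± 0.16 and FOXO1, a factor restrained by insulin, by 1.25 ± 0.17. Of 28 insulin and PI3K genes 5 rose and 6 fell, so 39.3% were called, against 31.9% of all protein-coding genes. Other large falls were those of the small GTPase RAB7B (-2.39 ± 0.15), the liver-type secreted protein FGL1 (-2.29 ± 0.17), the homeobox gene UNCX (-2.24 ± 0.14), the phosphatase PTPRE (-2.19 ± 0.11), the RNA poly(A) polymerase TENT5C (-2.17 ± 0.08), ELFN1 (-2.14 ± 0.16) and EBF3 (-2.12 ± 0.08). RASGEF1B (-2.16 ± 0.71) was low in both groups, at 0.0687 against 0.334 CPM on average, and did not pass without ATRA replicate 2, ATRA replicate 5 or DMSO replicate 5 (adjusted p = 0.0505, 0.0737 and 0.056).

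Stress and metabolic lists held calls in both directions. Of 21 tested targets of the aryl hydrocarbon receptor and NRF2, 11 fell and 2 rose. HMOX1, the haem oxygenase, stood at 0.457, 0.628 and 0.603 CPM with ATRA, 1.93, 1.87 and 2.59 CPM with DMSO and 0.419, 0.106 and 0.222 CPM untreated, so ATRA cells were nearer to the start than DMSO cells were. CYP1A1, a classic aryl hydrocarbon receptor target, went the other way, from 0.419, 0.319 and 0.539 CPM untreated and 2.96, 3.19 and 2.26 CPM with DMSO to 37.5, 41.6 and 37 CPM with ATRA (3.79 ± 0.15), while TIPARP, another target of that receptor, fell (-1.19 ± 0.07). Of 29 genes that answer amino acid starvation or unfolded proteins 9 fell and 3 rose, of 25 of glycolysis and hypoxia 8 fell and 3 rose, and of 29 of cholesterol synthesis and control 6 fell and 4 rose. The share called was 34.5% for the cholesterol list and 33.3% for the heat shock list, near the 31.9% called over all protein-coding genes. It was 41.4% for the starvation and unfolded protein list, 44% for glycolysis and hypoxia and 37.5% for the DNA methylation list. The cystine carrier SLC7A11 (-1.03 ± 0.09) and the glucose carrier SLC2A3 (-1.36 ± 0.12) fell, and SREBF1 (0.97 ± 0.08), a factor of lipid synthesis, rose. Of 21 MAPK feedback genes 6 rose, among them DUSP6 (0.69 ± 0.08), and 6 fell, among them DUSP10 (-1.33 ± 0.13). Of 14 genes of NAD metabolism 6 rose, led by CD38, and 1 fell, and of 16 of DNA methylation 3 rose and 3 fell, among the latter TET3 (-0.74 ± 0.08) and DNMT3A (-0.37 ± 0.07). In the heat shock list 3 of 15 fell and 2 rose, and without DMSO replicate 5, 6 fell and 2 rose. With genes that share exons left out, 0 of 9 fell and 2 rose. HSPA8, an abundant chaperone, stood at 2288, 2189 and 2554 CPM with ATRA against 3472, 3744 and 2895 CPM with DMSO (-0.52 ± 0.09). Of 13 mitochondrially encoded genes 0 passed in edgeR's test.

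**Figure D3:**
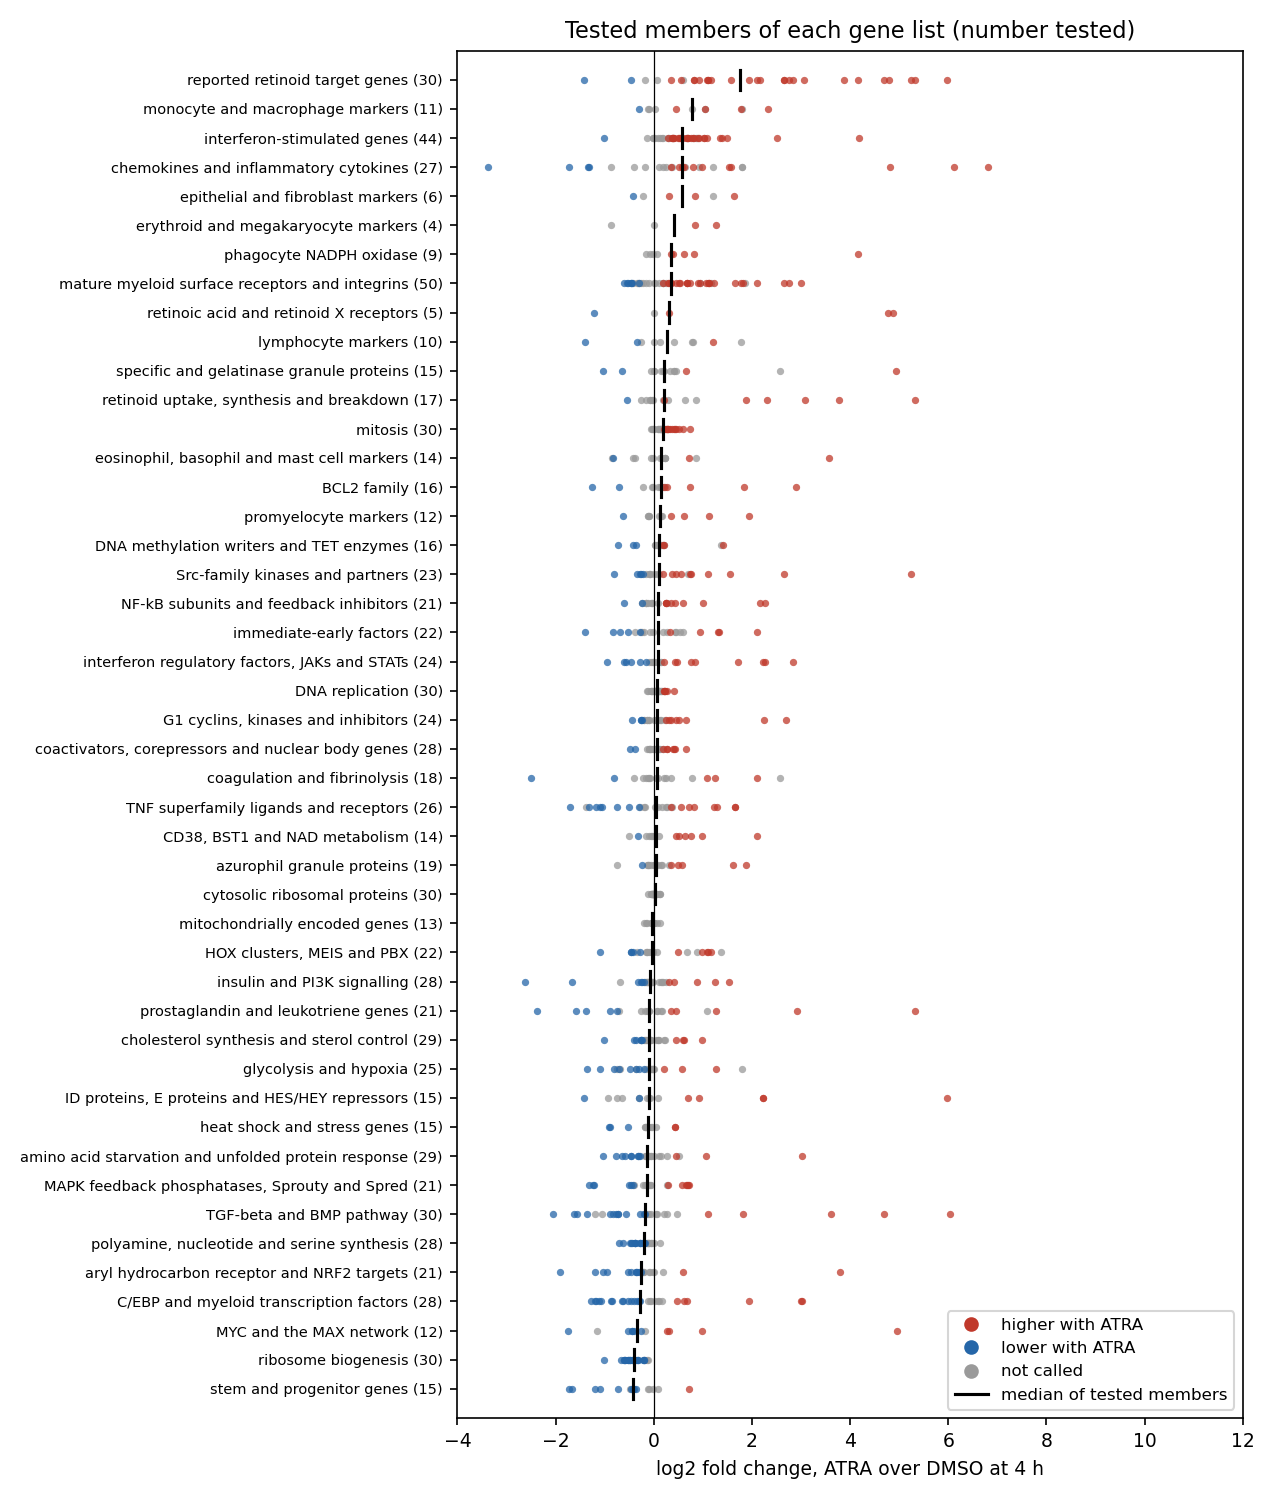
Log2 fold change at 4 h of every tested member of each gene list, 1 point per gene, red where it rose, blue where it fell and grey where it did not pass, with the list's median as a black bar and the number tested in brackets. The reported retinoid targets lie furthest to the right with a median of 1.76, and ribosome biogenesis (-0.40) and stem and progenitor genes (-0.42) furthest to the left. Some genes are in several lists.

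The solvent cultures had themselves moved from the start. DMSO cells of 4 h differed from untreated cells in 7208 genes (31.4% of those tested; 15.7% rose and 15.7% fell), and ATRA cells in 10401 (45.3%; 22.9% rose and 22.4% fell). These comparisons share libraries with the main one, so their values are only set side by side. Of the 944 genes at least 2-fold higher with ATRA, DMSO had not moved beyond the threshold in 663, had risen in 185 and had fallen in 96. Of the 443 at least 2-fold lower with ATRA, DMSO had not moved in 223, had fallen in 101 and had risen in 119. TENT5C is an example of a shared fall, at 102, 109.6 and 105 CPM untreated, 52, 51.9 and 49.9 CPM with DMSO and 11.9, 12.6 and 9.57 CPM with ATRA. SH3TC1 is an example of the opposite, at 5.7, 5.88 and 8.34 CPM untreated and higher in all DMSO libraries. Immediate-early genes summed to 677 to 766 CPM untreated, 208 to 270 CPM with DMSO and 228 to 241 CPM with ATRA. FOSB, a subunit of the AP-1 factor, stood at 27.9, 28.2 and 24.7 CPM untreated, 0.9, 0.476 and 0.876 CPM with DMSO and 2.78, 3.77 and 2.98 CPM with ATRA (2.10 ± 0.24). ATRA cells held more FOSB than DMSO cells did and far less than at the start. Over 22 tested immediate-early genes 5 rose and 5 fell with ATRA against DMSO.

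Whether the early changes lasted was tested as the ATRA effect at 12 h, which rests on other libraries, minus that at 4 h. This difference passed for 3222 genes (14%), 1868 of them positive (8.13%) and 1354 negative (5.89%). Without DMSO replicate 4 of 4 h it passed for 3875, 1857 positive and 2018 negative. Of the 944 genes that rose at least 2-fold at 4 h, 764 were also called higher at 12 h, and 6 were called lower. Of the 443 that fell, 237 were called lower at 12 h and 10 higher. These genes were chosen for a large effect at 4 h, and the same 4 h value is subtracted in the difference, which favours a smaller effect at 12 h. Differences towards 0 are therefore given as a description. Most genes named below were picked for the largest differences that passed, in either direction, so that these passed is no separate result.

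The rise of RARG was smaller at 12 h, going from 4.87 at 4 h to 2.06 at 12 h (difference -2.80, adjusted p = 1.86e-05), with 1.45, 1.77 and 2.4 CPM in the ATRA libraries of 12 h. HES2 turned from 2.23 to -2.70 (adjusted p = 1.55e-15 for the difference). LIF, at 0 counts with DMSO at 4 h, stood at 0.0453, 0.18 and 0.394 CPM with ATRA and 0.158, 0 and 0.115 CPM with DMSO at 12 h. CD80, a co-stimulatory ligand, had 34 counts with ATRA against 3 with DMSO at 4 h (a ratio of 10.46, exact 95% interval 3.29 to 53.2) and 17 against 18 at 12 h. The peptide hormone gene UCN2, with 69.3% of its exons shared, went from 2.09 to -1.24. The difference for LIF did not pass without DMSO replicate 5 of 4 h (adjusted p = 0.0568), without DMSO replicate 2 of 12 h (0.106) or without DMSO replicate 5 of 12 h (0.0617). NR4A3, an orphan nuclear receptor, had 1.30 and -1.33, and its 4 h value did not pass without any 1 of ATRA replicates 4 and 5 and DMSO replicates 4 and 5 (adjusted p from 0.0933 to 0.206). Larger by 12 h were hexokinase HK3 (1.48 to 5.77), CCL24 (4.81 to 8.77), the muscle-type troponin TNNT3 (2.55 to 5.98; 47.7% shared), SMIM35 (3.90 to 7.30) and the defensin pseudogenes DEFA8P (1.59 to 5.45) and DEFA9P (2.36 to 5.64), which resemble other defensin genes and are uncertain. CYBB, which did not pass at 4 h, had a change of 1.28 at 12 h (difference 1.44, adjusted p = 4.68e-13), and DEFA4 went from 0.50 to 3.99.

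The falls of MYC, MYB and IRS2 were smaller at 12 h. MYC went from -1.75 at 4 h to -0.38 at 12 h (difference 1.37, adjusted p = 6.45e-12), MYB from -1.72 to -0.09 (adjusted p = 5.45e-17) and IRS2 from -1.66 to -0.21 (adjusted p = 4.24e-12). SH3TC1 (-2.96 to -0.97), PLD6 (-2.68 to -0.81), SMAD7 (-1.36 to 0.46) and PTGER2 (-1.37 to 0.43) had smaller falls or none by 12 h, and IPCEF1, a partner of a small GTPase exchange factor, turned from -1.02 to 2.23. The 4 h groups of IPCEF1 overlapped, and it did not pass at 4 h without ATRA replicate 2, ATRA replicate 4 or DMSO replicate 5 (adjusted p = 0.101, 0.0726 and 0.12). F3, by contrast, stood at -2.5 and -2.76 with no called difference (adjusted p = 0.338). Falls that were larger at 12 h were those of FGL1 (-2.29 to -4.43), the receptor GPR146 (-1.07 to -2.83), GSAP (-1.09 to -2.80), SPRY4, an inhibitor of receptor kinase signals (-1.22 to -2.77), MICAL2, which acts on actin (-1.15 to -2.68), and the pattern receptor CLEC4E (-1.02 to -2.54). The value of CLEC4E at 4 h did not pass without ATRA replicate 2, ATRA replicate 4 or DMSO replicate 4.

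**Figure D4:**
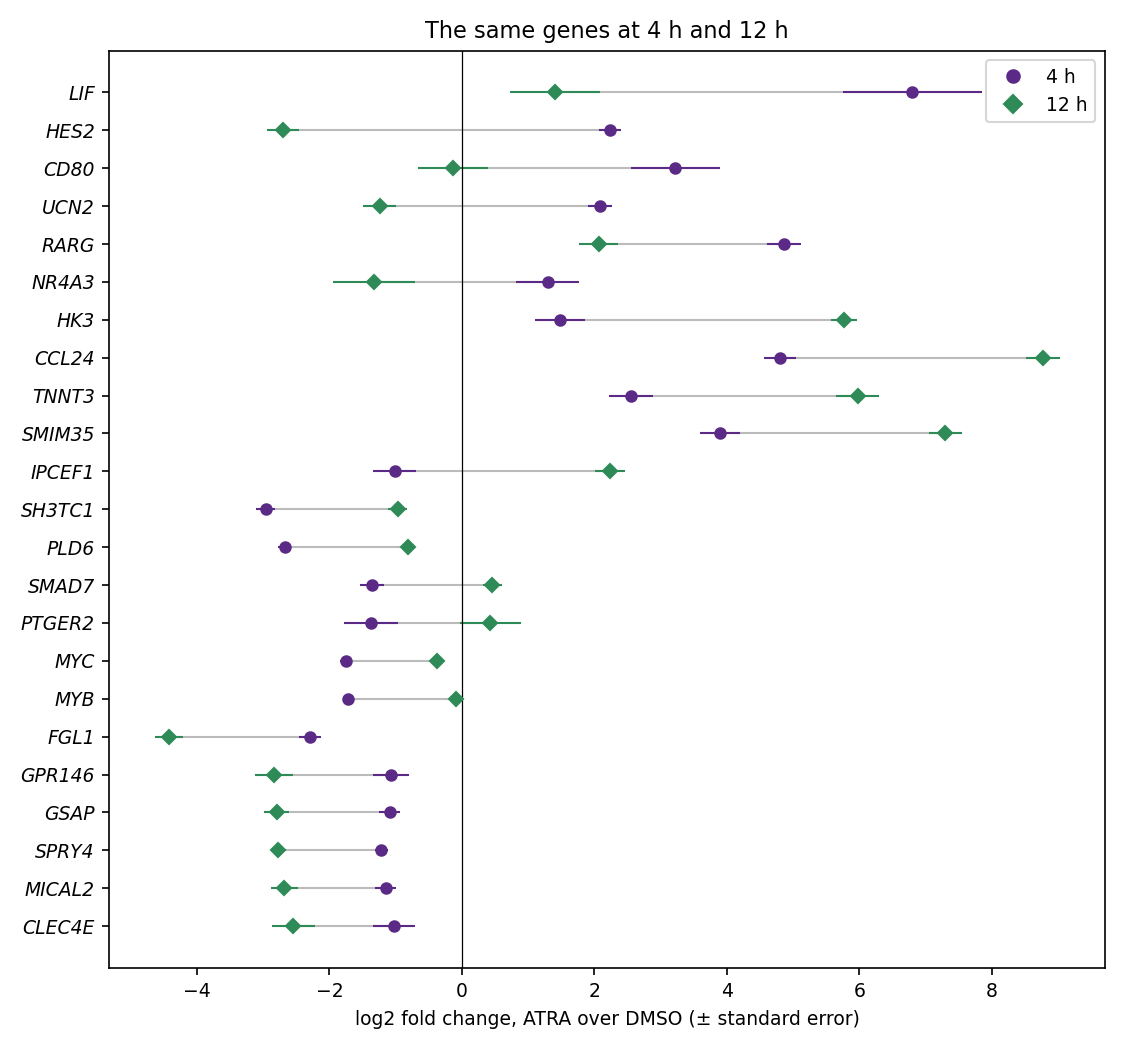
ATRA effect at 4 h (circles) and 12 h (diamonds) for 23 genes, as log2 fold change over DMSO of the same time with its standard error. HES2 and IPCEF1 cross 0 in opposite directions, RARG stays above 0 at a lower value, and MYC and MYB return towards 0. LIF had 0 counts with DMSO at 4 h, so its point for 4 h depends on the prior count of the fit.

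Non-coding RNAs were called as well. Of 3156 tested long non-coding RNAs 18.4% were called and of 3044 FANTOM CAT models, mostly unnamed transcripts found from their start sites, 13%, against 31.9% of 13418 protein-coding genes. In these models 174 of the called genes rose at least 2-fold and 91 fell. The model CATG00000022496 stood at 4.72, 4.4 and 5.07 CPM with ATRA and 0.0429, 0 and 0.11 CPM with DMSO (6.40 ± 0.33), and CATG00000033724 at 2.4, 1.89 and 2.45 against 0.0429, 0 and 0.183 CPM (4.77 ± 0.40). CATG00000074926 and CATG00000094866 had 1 count each with DMSO, and their ratios were 101 (17.7 to 4009) and 90.4 (15.9 to 3608) with exact 95% intervals in brackets. CATG00000001121 was at 0 with DMSO and at least 4.61-fold higher. Falling RNAs were CATG00000005247 (-2.30 ± 0.48), AC010980.2 (-2.28 ± 0.32), CATG00000005766 (-2.03 ± 0.26), CATG00000018034 (-2.01 ± 0.51), CATG00000027342 (-1.81 ± 0.32) and EMSLR (-1.77 ± 0.15), which lies opposite another gene over 80.5% of its exons. CATG00000018034 did not pass without DMSO replicate 5 (adjusted p = 0.0596).

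Genes and their neighbours on the opposite strand were often called in the same direction. Where a gene that rose at least 2-fold had a tested partner on the other strand whose start lay within 5000 bases, the partner rose in 137 of 242 cases (56.6%) and fell in 3. Where a gene fell at least 2-fold, the partner fell in 49 of 128 cases (38.3%) and rose in 1. Partners of genes that were not called rose in 10.4% and fell in 14% of 6028 cases. Only tested partners were counted, and a partner scarce with DMSO could enter the test through its level with ATRA. That favours partners that rose. Pairs in which both genes changed at least 2-fold, such as FGR and CATG00000078275, were listed from each gene, so cases can repeat a pair. How far these limits moved the shares was not tested. FGR lies 60 bases from the start of CATG00000078275, whose change was 3.44, ITGAX 411 bases from CATG00000029081 (4.35), GDF15, a stress cytokine (2.96), 314 bases from CATG00000040514 (4.92) and the adhesion gene L1CAM (2.22) 153 bases from CATG00000112857 (4.80). BPI, a granule protein (1.88), starts 623 bases from KIAA1755 (3.70). Within 1000 bases the partner rose in 77 of 134 cases for the former genes and fell in 17 of 44 for the latter. Parts of these models lie opposite other gene models. Of the exon length of CATG00000040514 100% lies opposite another gene model, of CATG00000112857 75.3%, of CATG00000029081 45.9%, of KIAA1755 22.4% and of CATG00000078275 3.8%. The authors' counting used strand, per the file headers.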

How the data were processed

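The deposited table holds raw counts of fragments per gene, made by the authors with featureCounts 1.5.1 on Ensembl genes merged with FANTOM CAT models on GRCh38 (sequence of Ensembl release 90), paired and by strand, a fragment counting for every gene it overlaps, per the file headers. The tools in the submitters' processing notes are Trimmomatic 0.36, STAR 2.5.2b and Subread 1.5.1. Of 85160 genes, 20374 (23.9%) overlap exons of a neighbour on their own strand, and such fragments count for both. Gene types come from GENCODE 29, which held 57447 of the 58970 Ensembl identifiers. Symbols come from a reference of current gene names, with the GENCODE 29 name where that gave none. All columns were used.

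From these counts, edgeR 4.0.16 (R 4.3.3, limma 3.58.1) fitted a mean per group over all 33 libraries with TMM scaling, and 22971 genes passed filterByExpr. Genes were called with the quasi-likelihood test at a Benjamini-Hochberg adjusted p under 0.05, 2-sided. CPM are counts per 1000000 of a library's TMM-scaled total. Totals at 4 h were 21720842 to 30593692 fragments. Ratios of few counts carry exact intervals for counting error only. Named genes were the 15 largest rises and 15 largest falls with an average log2 CPM of at least 1 and no overlap, the 4 smallest p of each list, a core set, 6 rising and 6 falling non-coding genes, and genes whose 12 h effect differed, of which some are not reported here. L1CAM, GDF15, BPI and KIAA1755 with their partners, TRIM31, CYB5R2, BATF2, PTGER1, TGFBR1, TGFBR2, ACVR1B, BMPR1A, BMP2, SMAD2, MXI1 and MGA were named after their values were seen. The members and lists were chosen with earlier results of these data known. The fit was tested on simulated counts. Alternatives were RLE scaling, other filters, DESeq2 1.42.0, limma-voom, the compared groups alone, a replicate block, leaving out mitochondrial and small RNA genes or genes with shared exons, and leaving out each library.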

Additional observations from a re-analysis of the deposited data

Results flagged for a closer look

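The ATRA effect differed between 4 h and 12 h by the test of the difference itself in 3222 genes. The genes below had changed at least 2-fold at 4 h and were picked for the largest differences that passed, in either direction. That they passed was therefore fixed by the choice. Other named genes, such as MYC, MYB and CYBB, passed as well. Each value is the effect at 12 h minus that at 4 h on the log2 scale. The choice of a large 4 h effect also favoured smaller effects at 12 h. Among genes that rose at 4 h, the effect at 12 h was lower for RARG (-2.80), HES2 (-4.93), CD80 (-3.35), UCN2 (-3.33), NR4A3 (-2.63) and LIF (-5.40), a value that depends on the prior count because LIF had 0 counts with DMSO at 4 h. It was higher for HK3 (4.29), CCL24 (3.97), TNNT3 (3.43), SMIM35 (3.40), DEFA8P (3.86) and DEFA9P (3.28). Among genes that fell at 4 h, the difference was positive for SH3TC1 (1.99), PLD6 (1.87), SMAD7 (1.81), PTGER2 (1.80), IPCEF1 (3.25) and Y_RNA (1.76), a small RNA gene with many near-identical copies. It was negative for FGL1 (-2.14), GPR146 (-1.76), GSAP (-1.70), SPRY4 (-1.55), MICAL2 (-1.53) and CLEC4E (-1.52). The differences of CD80, CLEC4E, DEFA9P, LIF, NR4A3 and PTGER2 did not pass when single libraries were left out.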

How the results depend on the processing

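With genes that share exons left out, 12906 genes were tested and 3067 were called at 4 h, 299 passed the test against 2-fold, 1822 differed between 12 h and 4 h, 3825 differed between DMSO and untreated cells and 5665 between ATRA and untreated cells, fewer because fewer genes were tested. The other settings kept these counts within 1.5 times, and at 4 h they gave 4206 (groups compared alone) to 6006 (with a replicate block) calls. Leaving out 1 library gave 4729 to 5471 calls at 4 h, 429 to 464 past 2-fold, 2630 to 3875 between the times, 6001 to 6912 for DMSO and 9107 to 9396 for ATRA against untreated cells. Of 235 named genes 15 lost their call at 4 h in at least 1 of these, and 7 lost it under another setting. No direction reversed.

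Samples of the same replicate number deviated together weakly at most (r = 0.0545, 8e-04 and 0.062 for replicates 2, 4 and 5). The main fit did not take the numbers as pairs. With a replicate block 6006 genes were called at 4 h, 504 passed the test against 2-fold, 3531 differed between the times, and 7505 and 10694 differed from untreated cells for DMSO and ATRA. The same-numbered r was the highest for replicates 2 and 5 and not for replicate 4. For DMSO against untreated cells with these groups fitted alone, 5083 genes were called without a replicate block and 7101 with it. Spread shared by replicate number was not tested further. With genes of few counts, such as CYB5R2, CEACAM1 and RARB, depth limits the size of the change that can be stated.

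The share of partners that fell beside 2-fold risers went from 1.24% within 5000 bases to 2.24% within 1000. The shares of promoters with a repeat fell with 2 half-sites alone, to 0.0256% of all tested genes and 0.454% of 2-fold risers for the spacing of 5 bases.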
